A study of Mus musculus with 6 samples.

Results

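Hox genes encode homeodomain transcription factors that sit in 4 clusters and are numbered by paralog group along each cluster, from the anterior end (group 1) to the posterior end (group 13). Pitx1, Tbx4 and Tbx5 set limb identity: Pitx1 and Tbx4 act in the hindlimb, and Tbx5 in the forelimb and the heart. These genes were examined in the gastrocnemius, a calf muscle of the hindlimb, of DGAT1 transgenic mice and wild-type (WT) mice. Members were the probe sets with a single platform gene symbol of Hoxa, Hoxb, Hoxc or Hoxd followed by a number, or equal to Pitx1, Tbx4 or Tbx5. The brightest probe set by mean over the 6 arrays was taken for each gene. This gave 39 genes, of 22180 genes with such a probe set (23521 probe sets with 1 gene symbol, 41345 in all). They comprised 36 Hox genes (9 Hoxa, 10 Hoxb, 9 Hoxc and 8 Hoxd) and the 3 limb factors. Hoxb5 had 2 probe sets and the others 1. Hoxa11 and Hoxd4 were measured only by probe sets that list a second gene and were left out.

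The transgenic group and the WT group had 3 mice each, all males of 3 months, of strain C57 in the labels (C57BL/6 in the methods), with 1 Affymetrix Mouse Gene 2.0 ST array per mouse. According to the methods, transgenic mice were F1 offspring of founders that carried a porcine DGAT1 cDNA driven by the porcine MCK promoter, which is active in striated muscle, whereas the sample labels call the same mice a DGAT1 knockout. The label and the methods therefore differ on what was done to DGAT1. The labels name the 3 arrays of a group as biological replicates. On the log2 scale mouse Dgat1 measured 8.09, 7.65 and 7.73 in the transgenic and 7.96, 7.26 and 7.79 in the WT animals, so the groups overlapped. The difference was 0.15 on that scale (SE 0.23, limma adjusted p = 1), and probes made for the mouse gene may miss a pig transcript. Markers of fast muscle fibers, which make up most of the mouse gastrocnemius, were bright on all arrays, from Myh2 at 11.3 to Acta1 at 13.6 as means over the 6 mice. Median log2 values of the arrays were 5.71 to 5.88. WT replicate 2 and transgenic replicate 2 had the narrowest spread over probe sets (SD 1.82 and 1.86) and WT replicate 1 the widest (SD 1.96).

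During development Hox genes are switched on in the order in which they lie in the cluster, and the combination of active Hox genes marks a position along the body axis. In the limb bud, groups 9 to 13 are used again along the axis from body to digits, with groups 9 and 10 acting in the upper segment, group 11 in the middle segment and group 13 in the hand or foot. Pitx1 turns on Tbx4 in the hindlimb bud. Adult connective tissue and muscle keep part of this positional expression. Pbx and Meis proteins bind DNA together with Hox proteins, and Polycomb complexes keep unused parts of the clusters silent.

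A log2 value of a probe set depends on its probes as well as on the transcript, so values of different genes were not ranked as amounts of RNA. To say which members had a signal above that of genes little used in muscle, each mean was set against the 1091 olfactory receptor (Olfr) probe sets, whose 95th percentile of means was 6.04 and whose median was 4.55. Of the 39 members 18 lay above this reference, as did 51.2% of all probe sets with 1 gene symbol. Of the 39, 9 lay above the reference of every single array and 14 above that of no array. The reference itself ran from 5.77 (WT replicate 1) to 6.46 (WT replicate 2), so a dim value in one mouse cannot be read as the gene being off. In bulk muscle, fewer cells of a type and less RNA per cell cannot be told apart.

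The members above the reference were spread unevenly over the paralog groups. None of the 7 members of paralog groups 1 to 3, which pattern the hindbrain and neck, had a mean above the reference, with means of 4.69 (Hoxb2) to 5.85 (Hoxb3). Of the 14 members of groups 4 to 8, 8 lay above it. All 7 members of groups 9 and 10 had means above it, from 6.17 for Hoxb9 to 8.30 for Hoxc10. Of the 8 members of groups 11 to 13, which act in the lower limb, digits and tail, 2 had means above it, Hoxc11 at 6.13 and Hoxa13 at 6.83. Against the reference of each single array, Hoxa9, Hoxb9 and Hoxd9 lay above it on 4 arrays each, Hoxc11 on 3 and Hoxa13 on 5. Hoxd11, Hoxd12 and Hoxd13, which act in the forearm, digits and genital bud, had means of 5.10, 5.34 and 5.36. Hoxb13, a prostate and tail gene, had 5.13 and Hoxc13, which acts in hair and nails, 5.63. Probe sets that list 2 genes were not counted. Among them, 2 with a gene of groups 1 to 3 lay above the reference, that of Hoxa3 with 5730446D14Rik at 6.34 and that of Hoxd4 with Hoxd3 at 6.11. In group 11, probe sets that list Hoxa11 with Hoxa11os had means of 6.18, above the reference, and 5.33, below it. These divisions of the groups were drawn after the values were seen and no test was made of them.

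**Figure D1:**
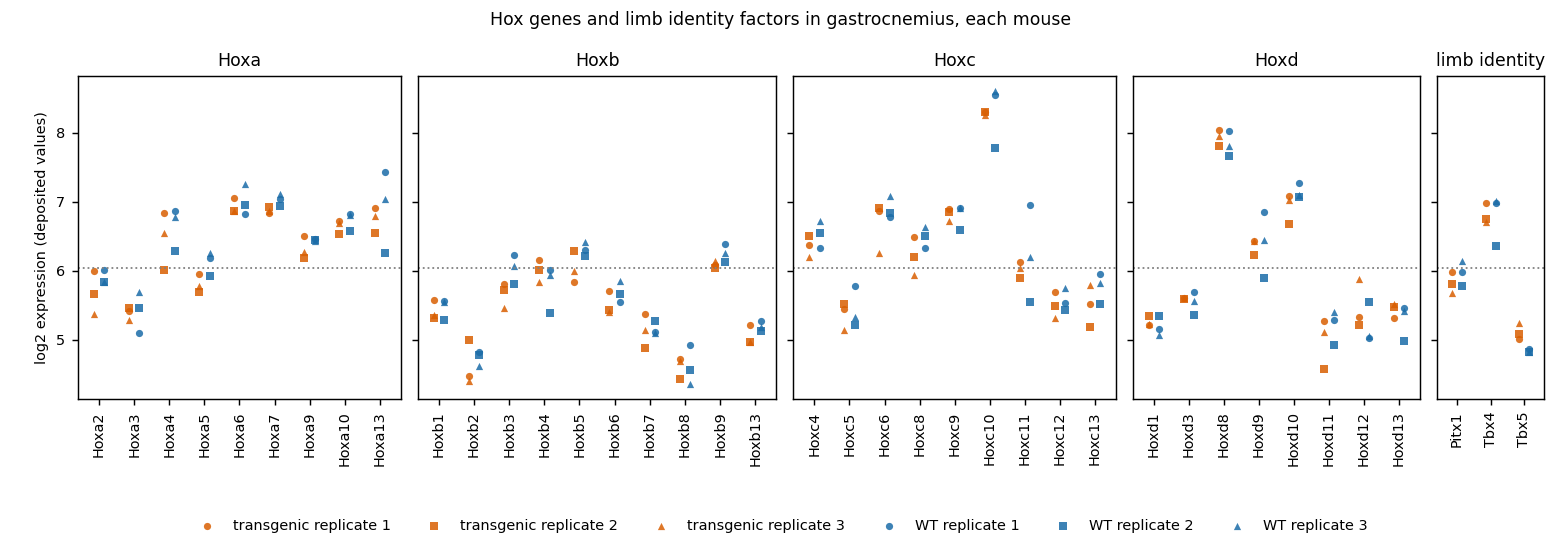
Log2 expression of each of the 39 genes (y axis, deposited values) in each mouse, by cluster and in the order of the paralog groups (x axis). Orange symbols are the 3 transgenic mice, blue symbols the 3 WT mice, the shape gives the replicate, and the dotted line is the olfactory receptor reference of 6.04. Hoxc10 and Hoxd8 lie highest, and the 2 groups lie close together for nearly every gene.

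Among the limb factors Tbx4, the hindlimb T-box gene, measured 6.98, 6.76 and 6.71 in the transgenic and 6.99, 6.36 and 7.02 in the WT animals. The lowest and the highest value were both those of WT mice, so the groups overlapped. Its log2 fold change was 0.03 (standard error 0.21), and the 95% confidence interval of the fold change was 0.716 to 1.45. Pitx1, the homeobox gene upstream of Tbx4, had 5.99, 5.81 and 5.68 in transgenic mice and 5.98, 5.78 and 6.15 in WT mice. Its mean of 5.90 was below the olfactory receptor reference, and its fold change was 0.905 (95% confidence interval 0.691 to 1.19). Tbx5, the forelimb gene, had 5.02, 5.09 and 5.24 in transgenic mice and 4.87, 4.83 and 4.83 in WT mice. Every transgenic mouse was above every WT mouse, but all 6 values lay below the reference of their own array. The fold change of Tbx5 was 1.21 (95% confidence interval 0.965 to 1.51, adjusted p = 1 from limma, exact permutation test over the 6 mice, two-sided, p = 0.1, the smallest p that 3 against 3 allow). Tbx4 was thus the 1 limb factor with a mean above the reference.

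In the Hoxc cluster Hoxc10 stood highest. Hoxc10 acts in the hindlimb and in lumbar motor neurons, and it measured 8.30, 8.30 and 8.26 in the transgenic and 8.55, 7.78 and 8.60 in the WT animals. The transgenic mice lay within 0.05 of each other (SD 0.02) and inside the range of the WT mice (SD 0.46). Its fold change was 0.985 (95% confidence interval 0.668 to 1.45). Hoxc9, which marks the thoracic level in motor neurons, had 6.89, 6.84 and 6.72 in transgenic and 6.90, 6.58 and 6.90 in WT mice, a fold change of 1.02 (95% confidence interval 0.788 to 1.31). Hoxc6, a gene of the brachial level, had 6.86, 6.91 and 6.26 in transgenic and 6.78, 6.83 and 7.08 in WT mice. Transgenic replicate 3 alone was low for Hoxc6, the groups overlapped, and the log2 fold change was -0.22 (SE 0.22). Hoxc8, its neighbour in the cluster, had 6.49, 6.20 and 5.95 in transgenic and 6.34, 6.51 and 6.63 in WT mice. It was also lowest in transgenic replicate 3, with a log2 fold change of -0.28 (SE 0.18). Hoxc4 (mean 6.45) lay above the reference on all 6 arrays, and Hoxc5 (5.41) and Hoxc12 (5.54) had means below it.

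In the Hoxd cluster Hoxd8 measured 8.04, 7.81 and 7.96 in the transgenic and 8.03, 7.66 and 7.80 in the WT animals, a fold change of 1.08 (95% confidence interval 0.830 to 1.40). The lowest value was that of WT replicate 2 and the groups overlapped. Hoxd10, which acts in the hindlimb and in lumbar motor neurons, had 7.09, 6.68 and 7.03 in transgenic and 7.27, 7.07 and 7.10 in WT mice. Its fold change was 0.861 (95% confidence interval 0.656 to 1.13), with transgenic replicate 1 inside the WT range. Hoxd9, a gene of the upper limb segment, had 6.43, 6.22 and 6.44 in transgenic and 6.86, 5.90 and 6.45 in WT mice. WT replicates 1 and 2 were the extremes of all 6 mice for Hoxd9, and its log2 fold change was -0.04 (SE 0.25). The dim members were Hoxd1 (5.23) and Hoxd3 (5.57) at the anterior end and Hoxd11, Hoxd12 and Hoxd13 at the posterior end, so that the bright members Hoxd8, Hoxd9 and Hoxd10 lie side by side.

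The Hoxa cluster held 6 members above the reference of 9. Hoxa6 and Hoxa7 were the brightest, with 7.05, 6.87 and 6.86 in transgenic and 6.82, 6.96 and 7.25 in WT mice for Hoxa6, a log2 fold change of -0.09 (SE 0.17). Hoxa7 had 6.84, 6.93 and 6.87 in transgenic and 7.04, 6.94 and 7.11 in WT mice. Every transgenic mouse was below every WT mouse for Hoxa7, with a gap of 0.02 between transgenic replicate 2 and WT replicate 2 and a fold change of 0.900 (95% confidence interval 0.724 to 1.12). Hoxa13, which acts in digits and the genital bud, had 6.91, 6.54 and 6.79 in transgenic and 7.43, 6.26 and 7.03 in WT mice, a log2 fold change of -0.16 (SE 0.30) with both extremes among the WT mice. Hoxa10 (mean 6.69), best known for its role in the uterus, was above the reference on all 6 arrays. Hoxa4 (6.56) and Hoxa9 (6.38), a gene of blood progenitors, were above it on 4 arrays each. Hoxa2 (5.79), a hindbrain and neural crest gene, and Hoxa3 (5.41), a gene of thymus and parathyroid formation, had means below it.

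Of the 10 members of the Hoxb cluster 2, Hoxb9 and Hoxb5, had means above the reference, both at 6.17. Against the reference of each single array, Hoxb9 lay above it on 4 arrays and Hoxb5 on 2. Hoxb9 had 6.08, 6.05 and 6.14 in transgenic and 6.39, 6.13 and 6.25 in WT mice, a fold change of 0.890 (95% confidence interval 0.708 to 1.12). Hoxb5 had 5.84, 6.28 and 5.99 in transgenic and 6.30, 6.21 and 6.41 in WT mice. Its fold change was 0.829 (95% confidence interval 0.630 to 1.09). A second probe set of Hoxb5 had a mean of 5.86, below the reference. The fold change of that probe set was 1.04 (95% confidence interval 0.830 to 1.30), so the 2 probe sets differed in sign. Hoxb4, known for the expansion of blood stem cells, had 6.16, 6.01 and 5.84 in transgenic and 6.02, 5.39 and 5.95 in WT mice. WT replicate 2 alone was low for Hoxb4, and its log2 fold change was 0.22 (SE 0.21). Hoxb8, which supports myeloid progenitors, had the lowest mean of all members, 4.62, with 4.36 to 4.93 in the 6 mice. Hoxb6 (5.60), Hoxb7 (5.15), Hoxb2 (4.69) and the hindbrain gene Hoxb1 (5.44) were below the reference on every array.

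Sequences around the start sites of Hoxd8 and Hoxb8 are shown because they are the brightest and the dimmest member of paralog group 8. Those of Hoxa13 and Tbx4 are shown for the wide range of Hoxa13 between mice and for the role of Tbx4 in the hindlimb. Windows of 250 bases before to 50 after the start were taken from RefSeq (GRCm38.p6), where 21 of the 39 members had 23 windows. Capitals mark 3 motifs searched on both strands: CCAAT, the TATA motif TATAAA, and TGATNNAT, the site of Hox and Pbx pairs. Capitals TTTATA and ATTGATCA are matches of TATAAA and TGATNNAT on the opposite strand. The lines give the Hoxd8 window (chr2:74704365-74704664, plus strand), the Hoxb8 window (chr11:96281655-96281954, plus strand), the Hoxa13 window (chr6:52260831-52261130, minus strand) and the Tbx4 window (chr11:85896515-85896814, plus strand).
Hoxd8: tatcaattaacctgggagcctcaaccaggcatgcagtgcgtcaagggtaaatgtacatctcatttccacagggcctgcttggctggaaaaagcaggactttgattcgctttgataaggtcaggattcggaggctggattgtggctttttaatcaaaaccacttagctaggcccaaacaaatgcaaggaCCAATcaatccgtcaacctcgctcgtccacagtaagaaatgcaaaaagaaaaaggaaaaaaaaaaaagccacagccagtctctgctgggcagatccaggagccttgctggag
Hoxb8: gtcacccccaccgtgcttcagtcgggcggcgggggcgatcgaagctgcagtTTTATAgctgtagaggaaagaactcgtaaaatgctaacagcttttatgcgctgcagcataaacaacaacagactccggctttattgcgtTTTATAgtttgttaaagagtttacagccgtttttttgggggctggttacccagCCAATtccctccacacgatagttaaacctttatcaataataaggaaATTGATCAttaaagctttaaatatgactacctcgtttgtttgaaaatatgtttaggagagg
Hoxa13: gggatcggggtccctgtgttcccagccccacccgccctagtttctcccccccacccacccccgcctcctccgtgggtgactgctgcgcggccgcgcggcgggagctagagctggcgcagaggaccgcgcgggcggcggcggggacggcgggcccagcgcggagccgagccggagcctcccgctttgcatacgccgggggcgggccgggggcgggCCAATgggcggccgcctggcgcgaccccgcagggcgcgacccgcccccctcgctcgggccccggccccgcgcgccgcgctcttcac
Tbx4: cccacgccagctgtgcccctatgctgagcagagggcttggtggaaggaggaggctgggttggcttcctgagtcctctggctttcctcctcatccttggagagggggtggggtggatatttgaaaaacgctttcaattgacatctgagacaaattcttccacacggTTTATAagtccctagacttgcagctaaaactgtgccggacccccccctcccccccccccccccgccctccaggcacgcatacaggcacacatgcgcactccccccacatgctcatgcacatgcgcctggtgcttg

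Hoxd8 held 1 CCAAT and neither other motif. Hoxb8, its dim paralog, held 1 CCAAT, 2 TATAAA and 1 TGATNNAT match. Hoxa13 held 1 CCAAT and Tbx4 1 TATAAA match. CCAAT was found in 14 of the 23 member windows and in 37.4% of the 32851 windows of the table, TATAAA in 4 of 23 and 13.6%, and TGATNNAT in 4 of 23 (Hoxa2, Hoxb1, Hoxb8 and Hoxd11) and 8.85%. Member windows had a median of 14 CpG dinucleotides, compared with 7 over the table, and ranged up to 45 in Hoxa13, whereas Hoxd8 had 6. A match is a run of letters in the window, and no binding was measured.

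The 2 genotypes were compared with limma over all 41345 probe sets. The study threshold asks for p under 0.05 before adjustment and at least a 1.5-fold difference. Of the 39 members 0 passed it, as did 1.49% of all probe sets and 0.574% of those with 1 gene symbol, so the count of 0 is close to what the background share gives for 39 genes. With p under 0.05 before adjustment as the sole criterion, limma gave 0 members, beside 2.9% of all probe sets, and the methods' t-test gave 2 (Tbx5 and Hoxa7), beside 3.3%. With array weights 10 members had such a p, beside 15.7% of all probe sets, and without WT replicate 2 there were 2, beside 5.85%. The array weights were 5.15 for WT replicate 3, but 0.46 and 0.37 for WT replicates 1 and 2, so that fit rests mostly on WT replicate 3 for the WT group. The adjusted p was 1 for every member, and 0% of probe sets had an adjusted p under 0.05 from limma. Fold changes of the members ran from 0.774 for Hoxb3 to 1.21 for Tbx5.

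The size of change that 3 mice per group leave possible differed between members. For 23 of the 39 the 95% confidence interval lay within 1.5-fold in both directions, beside 56.7% of probe sets with 1 gene symbol, and for 38 within 2-fold. The exception was Hoxc11, with an interval of 0.496 to 1.503. Hoxc10, Hoxc9, Hoxd8, Pitx1 and Tbx4 were among the genes whose interval lay within 1.5-fold. For Hoxd12 the interval reached up to 1.78 and for Hoxb4 up to 1.64. For Hoxa13 and Hoxa4 it reached down to 0.548 and 0.575.

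**Figure D2:**
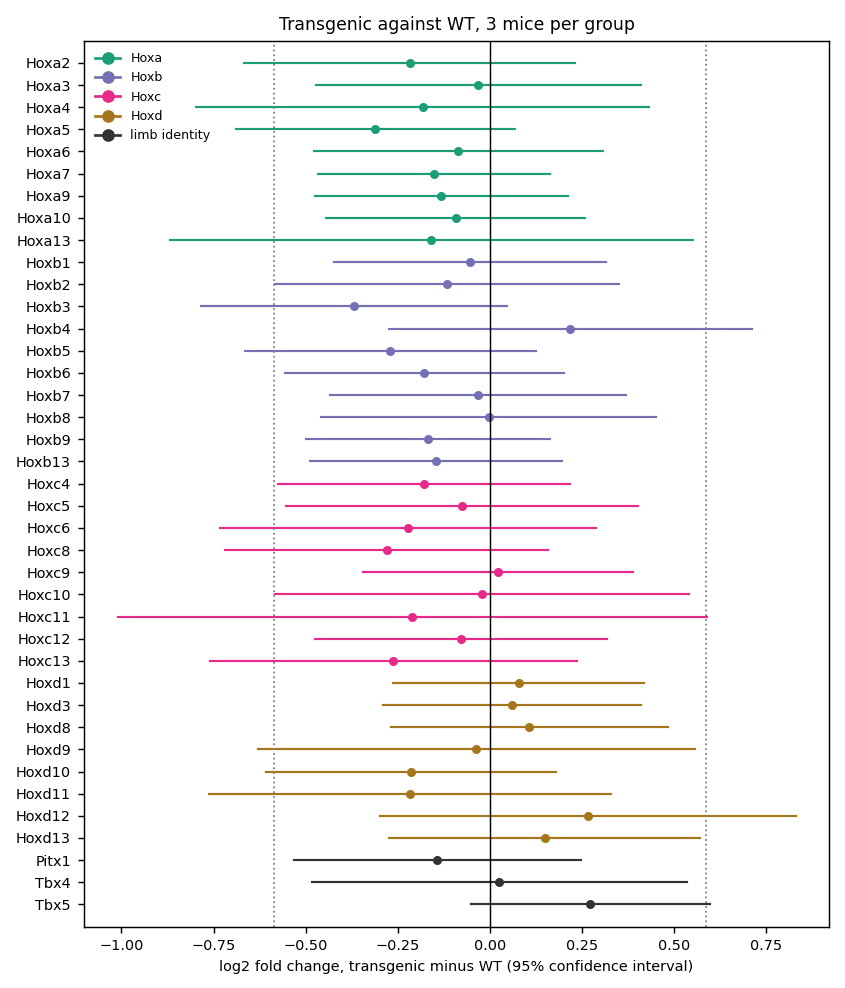
Log2 fold change of each gene, transgenic minus WT (x axis, points), with its 95% confidence interval from limma (lines), 3 mice per group, colored by cluster. The dotted lines mark 1.5-fold. All 39 intervals cross 0, the widest is that of Hoxc11, and most points lie left of 0.

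Means were lower in transgenic mice for 30 of the 39 members, beside 54% of the probe sets with 1 gene symbol and 55.2% of the 17520 such probe sets in the same range of means. The median log2 fold change of the members was -0.12, against -0.02 over the probe sets with 1 gene symbol, and with quantile normalization or median centring it was also -0.12, with 30 members lower. All 9 Hoxa members, 9 of 10 Hoxb members and 8 of 9 Hoxc members had lower means, compared with 3 of 8 Hoxd members, for which the median was 0.07. Neighbouring Hox genes share regulation and one array's value enters every member, so these counts are a description. Without WT replicate 1 the count was 24 of 39, and without WT replicate 2 it was 33 of 39. The members' median value was 5.99, 5.81 and 5.84 in transgenic replicates 1, 2 and 3 and 6.19, 5.82 and 6.15 in WT replicates 1, 2 and 3. The shift thus separated WT replicates 1 and 3 from the other arrays, and WT replicate 2 lay among the transgenic mice. List means of muscle fiber markers were apart between the genotypes as well. Means were lower in transgenic mice for all 8 fast fiber markers, with a list mean of 12.5 to 12.6 in transgenic and 12.7 in each WT mouse, and for 3 of 4 slow fiber markers, with 7.72 to 7.73 against 7.76 to 8.22. Neither list overlapped between the groups. Schwann cell markers (2 of 4 measured) went the other way without overlap, with 6.89 to 6.92 in transgenic and 6.67 to 6.75 in WT mice. Means were lower in transgenic mice for 0 of 4 endothelial, 0 of 4 adipocyte, 0 of 4 macrophage and 0 of 8 hepatocyte markers. They were lower for 2 of 7 fibroblast and interstitial and 2 of 4 satellite cell markers. The list means of these cell types overlapped between the groups. The part of these cell types in the lower Hox means was not tested.

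The 6 members with the smallest p from limma were, in this order, Hoxb3, Tbx5, Hoxa5, Hoxb5, Hoxc8 and Hoxd10. Hoxb3 had 5.81, 5.73 and 5.47 in transgenic and 6.23, 5.82 and 6.07 in WT mice, a fold change of 0.774 (95% confidence interval 0.581 to 1.03). Every transgenic mouse lay below every WT mouse, with transgenic replicate 1 and WT replicate 2 nearly equal. Hoxa5, which acts in lung and trachea, had 5.96, 5.69 and 5.79 in transgenic and 6.19, 5.92 and 6.26 in WT mice, a fold change of 0.806 (95% confidence interval 0.620 to 1.05). Transgenic replicate 1 was above WT replicate 2 for Hoxa5. Groups did not overlap, lower in transgenic mice, for 2 members (Hoxa7 and Hoxb3), beside 4.8% of probe sets with 1 gene symbol, and higher for 1 (Tbx5), beside 2.58%. Gene models of Hoxb3 and Hoxb4, of Hoxa3 with Hoxa4, Hoxa5 and Hoxa6, and of Hoxd10 and Hoxd11 overlap in RefSeq, so signal of one may reach the probe set of the other.

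The SD was larger among WT than among transgenic mice for 8 of the 15 posterior members, beside 63.1% of probe sets with 1 gene symbol, so a wider WT spread was not more frequent among them. Hoxc11, which acts in the hindlimb and the kidney, had 6.13, 5.90 and 6.04 in transgenic and 6.95, 5.54 and 6.20 in WT mice. Its WT SD was 0.71, against 0.12 in transgenic mice, and its log2 fold change was -0.21 (SE 0.34). WT replicate 1 was above WT replicate 2 by 1.41 for Hoxc11, 1.16 for Hoxa13, 0.96 for Hoxd9 and 0.77 for Hoxc10 on the log2 scale, or 2.66-, 2.24-, 1.94- and 1.70-fold. Of the 15 members of groups 9 to 13, 9 were highest in WT replicate 1 and 6 lowest in WT replicate 2. Over all 39 members these counts were 15 and 12. The share of all probe sets with their extremes in these arrays was not computed, so the counts are a description. For the 15 members of groups 9 to 13 the mean deviation from each gene's own mean was 0.22 in WT replicate 1 and -0.20 in WT replicate 2. It was nearly as low in transgenic replicate 2, at -0.18. In transgenic replicates 1 and 3 it was 0.04 and 0.01, and in WT replicate 3 it was 0.11. The 10 members of groups 1 to 4 had 0.09 and -0.07 in WT replicates 1 and 2, and the 11 members of groups 5 to 8 had 0.09 and -0.01. Tbx4 was also lowest in WT replicate 2. These 4 genes were singled out after their values were seen.

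**Figure D3:**
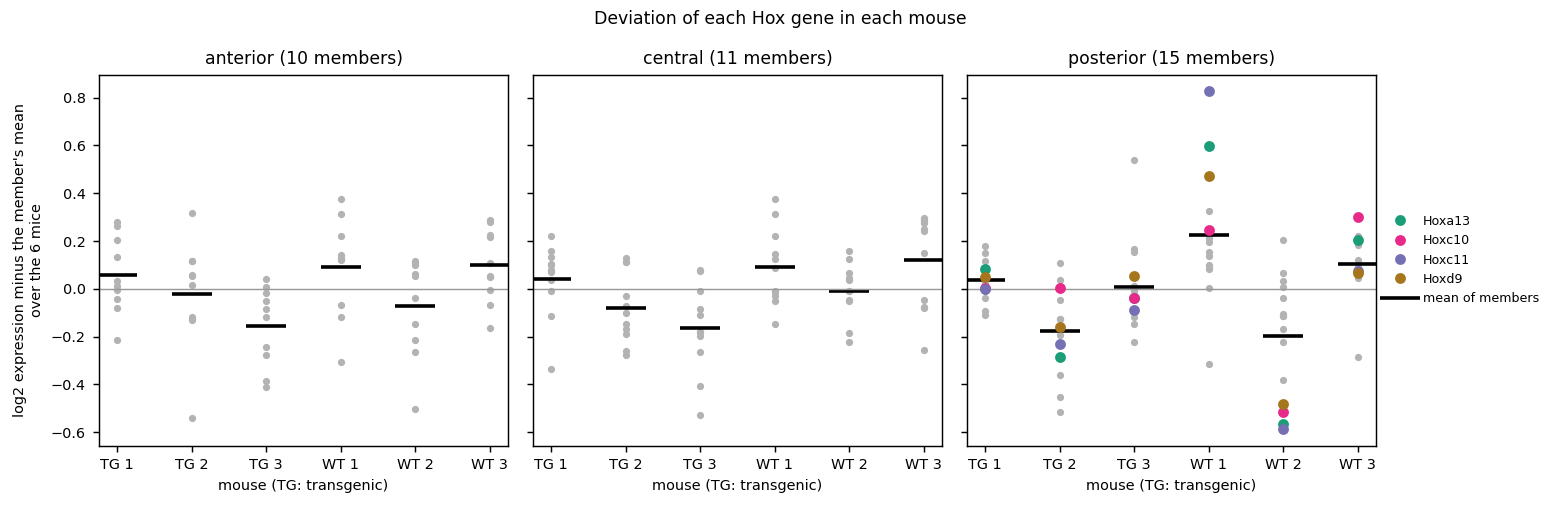
Deviation of each Hox gene in each mouse from its mean over the 6 mice (y axis, log2), for members of groups 1 to 4 (anterior), 5 to 8 (central) and 9 to 13 (posterior). Points are genes, black bars are means over the members, and colors mark 4 posterior genes. The posterior mean runs from -0.20 (WT replicate 2) to 0.22 (WT replicate 1), and Hoxc11 and Hoxa13 lie at the ends.

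Several measures differed between WT replicates 1 and 2, but not all of them set these 2 arrays apart from the other mice. Among all 15182 probe sets with 1 gene symbol in the range of means of the posterior members, the mean deviation was 0.04 in WT replicate 1 and -0.04 in WT replicate 2. After quantile normalization the posterior members had 0.27 and -0.25, and those probe sets 0.08 and -0.06. The members of groups 1 to 4 then had 0.18 and -0.16, and those of groups 5 to 8 had 0.14 and -0.05. Each gene was compared with the probe sets of 1 gene symbol within 0.5 of its own mean. Of these, 0.37% were higher in WT replicate 1 than in WT replicate 2 by more than Hoxc11. The share was 0.623% for Hoxa13, 1.24% for Hoxd9, 5.94% for Hoxc10 and 11.9% for Tbx4. Differences in the other direction were not counted. Markers of fibroblasts and interstitial cells (7 of 8 measured, all above the reference) had a list mean of 8.78 in WT replicate 2, 9.08 and 9.13 in WT replicates 1 and 3 and 9.03 to 9.25 in transgenic mice. Markers of slow fibers (4 of 4) had 7.76, 8.22 and 7.84 in WT replicates 1, 2 and 3. Hepatocyte markers (8 of 8 measured, 7 above the reference, Alb highest at 9.16) had 9.04 in WT replicate 1, 6.68 in WT replicate 2 and 4.83 in WT replicate 3, and 4.97 to 8.99 in transgenic mice. Of the remaining lists, macrophage markers had 7.28 to 7.82 in transgenic and 7.09 to 7.32 in WT mice. Of these 4 markers 1, Cd68, was past the study threshold, beside 0.574% of probe sets with 1 gene symbol. Cd68 had 7.75, 7.69 and 8.44 in transgenic and 7.26, 7.18 and 7.51 in WT mice. The lists of satellite cells (6.40 to 6.53 in transgenic, 6.42 to 6.52 in WT mice), endothelial cells (9.05 to 9.63 and 9.17 to 9.35) and adipocytes (6.98 to 7.62 and 6.61 to 7.37) overlapped between the groups, and these and the Schwann cell list had 0 members past the threshold. The part of these cell types and of array spread in the values of the posterior genes was not tested.

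Genes that work with or on the Hox clusters were taken from lists of known factors and read from the same limma fit. Of 8 measured Hox cofactors (Pbx, Meis and Pknox genes) 0 were past the study threshold and the median log2 fold change was 0.01. Pbx4 had the smallest p among them, with 5.36, 5.22 and 5.40 in transgenic and 5.82, 5.60 and 5.68 in WT mice. Every transgenic mouse was below every WT mouse for Pbx4, as for 4.8% of probe sets with 1 gene symbol. Its fold change of 0.772 (95% confidence interval 0.611 to 0.974) missed the fold minimum. The adjusted p from limma was 0.99997. The exact permutation test, two-sided, gave p = 0.1, the smallest p that 3 against 3 allow. The mean of Pbx4, 5.51, was below the olfactory receptor reference. Of 27 chromatin regulators, including Polycomb and Trithorax group genes, 0 were past the threshold, with a median of -0.10 and values from -0.27 for Bmi1 to 0.15 for Ezh2. Of 21 limb bud patterning genes and of 13 other homeobox and paired factors of muscle 0 each were past it, with medians of -0.00 and -0.03.

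Retinoic acid is a classical inducer of anterior Hox genes. Of 16 genes of retinoic acid signaling 1 was past the study threshold, beside 0.574% of probe sets with 1 gene symbol. This was Aldh1a2, which encodes the enzyme that makes retinoic acid in the embryo, and no other gene of the 6 lists passed. Aldh1a2 had 7.62, 7.22 and 7.67 in transgenic and 7.26, 6.46 and 6.84 in WT mice. WT replicate 1 was above transgenic replicate 2, so the groups overlapped. The exact permutation test, two-sided, gave p = 0.2. The fold change of Aldh1a2 was 1.57 (95% confidence interval 1.05 to 2.33, adjusted p = 1 from limma), and its lowest value was that of WT replicate 2. The list's median was 0.02.

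**Figure D4:**
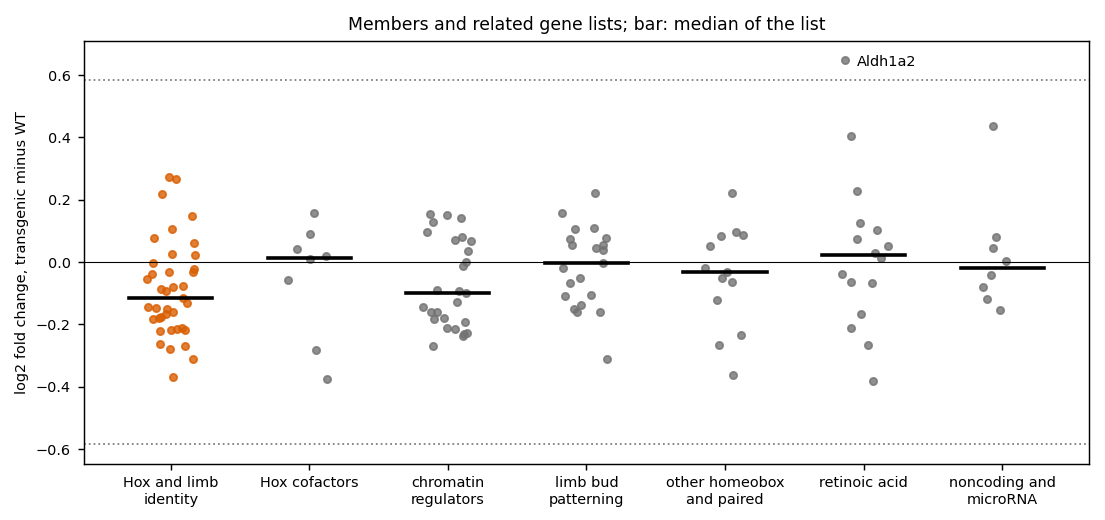
Log2 fold change, transgenic minus WT (y axis), of the 39 members (orange) and of the measured genes of 6 related lists (grey), with the median of each list as a bar and 1.5-fold as dotted lines. Aldh1a2 is the 1 gene beyond 1.5-fold, and the medians lie between -0.12 and 0.02.

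MicroRNAs of the miR-10 and miR-196 families are encoded inside the clusters and repress Hox transcripts. Their mature sequences are printed to show the 2 shared seeds, with bases 2 to 8 in capitals (RefSeq, GRCm38.p6). The genes lie at chr11:96317186-96317208 (miR-10a, plus strand), chr2:74726074-74726096 (miR-10b, plus strand), chr11:96265187-96265208 and chr15:102973365-102973386 (miR-196a, plus strand at both) and chr6:52230129-52230150 (miR-196b, minus strand).
miR-10a-5p: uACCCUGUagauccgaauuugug
miR-10b-5p: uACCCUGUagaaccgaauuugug
miR-196a-5p: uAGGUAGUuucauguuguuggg
miR-196b-5p: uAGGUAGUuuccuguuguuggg

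The probe set of Mir10a also lists Hoxb4 and was left out of the members. Mir10b was dim, with a mean of 2.49, and had a log2 fold change of -0.04. The 2 loci of miR-196a had log2 fold changes of 0.05 (Mir196a-1) and 0.44 (Mir196a-2). Mir196a-2 had 5.78, 5.51 and 5.60 in transgenic and 5.68, 5.05 and 4.85 in WT mice, with overlap through WT replicate 1. These probe sets read the locus and do not separate the hairpin from the mature form. Of the 8 measured noncoding and microRNA genes of the clusters 0 were past the study threshold, and Hotair, a long noncoding RNA of the Hoxc cluster, had a log2 fold change of -0.15.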

How the data were processed

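Total RNA of gastrocnemius muscle from 3 transgenic and 3 WT mice was measured on 6 Affymetrix arrays, 1 per mouse. The values deposited by the authors are log2 expression values, made per probe set with RMA, which corrects background, normalizes between arrays and summarises probes, according to the submitters' processing notes. The methods name the Affymetrix GeneChip Operating System for reading the arrays and GeneSpring GX for normalization and filtering, and the genome build is not given in the sources used here. They were used without further scaling. Arrays carry no read depth, so the number of arrays limits the precision. Gene names came from the platform annotation, with 23521 probe sets of 1 symbol, 1820 of several and 16004 of none, of 41345.

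Groups were compared with limma 3.58.1 (R 4.3.3; lmFit, eBayes, two-sided) over all probe sets, with Benjamini-Hochberg adjustment. The study threshold was an unadjusted p under 0.05 and a fold change of at least 1.5. The methods' t-test, array weights, other priors, other scalings, filters and leaving out each mouse were tried. Exact permutation tests were two-sided. Values in every mouse are given for the limb factors, the 3 brightest members of each cluster, the 6 with the smallest p and the 3 with the largest SD in a group. The members and lists were chosen with earlier results of these data known.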

Additional observations from a re-analysis of the deposited data

How the results depend on the processing

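The count of 0 members past the study threshold held under all 15 alternatives, and the median log2 fold change stayed negative, between -0.19 and -0.07 when single mice were left out. Of 279 values of named members 266 kept their direction and their side of the threshold, and 13 turned direction. In the methods' t-test, the replicate block, the other prior and the filters each log2 fold change stays as it was and lies within 1.5-fold. Direction and count could therefore not change there, nor with the mean over probe sets, except through Hoxb5. With array weights, which were largest for WT replicate 3, Tbx4 was -0.172 and Hoxc9 -0.0816. Leaving out single mice gave Tbx4 from -0.188 to 0.14, Hoxc9 from -0.0837 to 0.0754, Hoxd9 from -0.288 to 0.19, Hoxa13 from -0.481 to 0.101, Hoxc10 from -0.285 to 0.124, Hoxc11 from -0.557 to 0.149 and Hoxa6 from -0.18 to 0.0349, and the cause was not tested. At an unadjusted p under 0.05 there were 10 members with array weights (15.7% of all probe sets), 2 by the methods' t-test (3.3%) and 2 (Hoxb3 and Hoxa5) without WT replicate 2 (5.85%). Over all probe sets 618 passed the study threshold, compared with 281 by the methods' t-test, 2610 with array weights, 146 without dim probe sets, 149 with a mean over probe sets of a gene, 1106 without WT replicate 1 and 1335 without WT replicate 2.

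With the replicate number as a block the count was also 0 and the median -0.12, because the block leaves the fold changes unchanged. With it 921 probe sets passed. Deviations of mice with the same number correlated at 0.33, 0.40 and -0.17, and those of mice with different numbers at -0.46 to 0.17. The highest values were thus those of numbers 1 and 2, but number 3 did not follow. The labels name biological replicates, and the numbers were not taken to pair the mice. With 3 mice per group, and many members near the signal of olfactory receptors, differences within the bounds of the intervals remain possible. No smallest detectable difference was computed.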
